A study of Capra hircus with 36 samples.

Results

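Heart small RNA libraries of goats from high and low altitude were compared across all miRNAs listed in the deposited count files. The libraries were chosen by the tissue label heart, which 6 of 36 libraries carry, 3 from each altitude. The study sampled 6 tissues from each goat, the other 5 being spleen, longissimus muscle, lung, liver and kidney, and asked how miRNA levels differ between goats living at distinct altitudes in southwest China. Small RNA was sequenced, so each value is a count of reads assigned to a mature miRNA, the short RNA cut from one arm (5p or 3p) of a hairpin precursor.

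The high-altitude group was 3 Tibetan Goats living at 3000 m and the low-altitude group was 3 Chuandong White Goats living at 600 m. All 6 were adult females over 3 years of age with free access to food and water. The Tibetan Goats were kept under nomadic stocking and the Chuandong White Goats were reared at home. Breed, rearing and altitude therefore cannot be told apart, and high against low is used below only as the name of the groups. With 3 goats against 3, an exact permutation test cannot give a p below 0.1.

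Library totals were 12370181, 12390408 and 11768908 counts in high-altitude replicates 1, 2 and 3 and 12211721, 10779449 and 12347702 in low-altitude replicates 1, 2 and 3. Values of single libraries are given in this order throughout, the high-altitude libraries first and the low-altitude libraries after the word against. A range beside a log2 fold change or a median of them is that with each of the 6 libraries left out in turn. Of 1391 miRNAs tested, 838 had reads in heart and 553 had none there. Levels in CPM are counts brought to a common library size by the trimmed mean of M values (TMM), with factors of 1.06, 1.003 and 1.12 against 0.866, 0.940 and 1.03. A floor of 3 counts corresponds to between 0.227 and 0.296 CPM in a library. Reads were amplified by PCR and are not independent molecules, so such floors cover counting error only. The files name goat miRNAs of miRBase with the prefix chi-, sequences shared with other mammals with a further prefix, and the rest by a running number that refers to no miRBase name. The prefixes are dropped here, and the last kind is called without a match in miRBase.

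High-altitude replicate 2 stood farthest from its group, with a root mean square distance from the mean of the other 2 libraries of 1.18 log2 units over 219 miRNAs, where the other 5 libraries lay between 0.719 and 1.04. A set of 45 miRNAs combined 0 counts with at least 100 counts among libraries of the same group. Some of them had no reads in the libraries where a near relative had many. miR-199b-3p had 0, 0 and 34222 counts against 0, 0 and 23175. miR-199c-3p had 40743, 40317 and 0 counts against 23552, 24833 and 0. Each library thus carried its reads under one of these names, and their sum was higher at high altitude in every library, 2980.3 ± 344 against 2167 ± 319 CPM (SD, n = 3). miR-92b-3p had 24639, 0 and 0 counts against 21869, 0 and 0, with reads in replicate 1 of each group and in no other heart library. miR-30c-5p had 0, 42606 and 0 counts against 34722, 41653 and 43994 and was at 0 in the libraries of high-altitude replicates 1 and 3. miR-99b-5p had 51546, 0 and 43494 counts against 0, 0 and 0 and was present in exactly those 2 libraries. Whether reads of the last 3 passed to other names, and the cause of these patterns, was not tested.

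miRNAs guide Argonaute proteins to partly complementary sites in messenger RNAs, mainly through their seed, and lower the stability and translation of the targets. The heart is rich in miRNAs of striated muscle such as miR-1, miR-133 and the miR-208 and miR-499 group, which lies in introns of myosin heavy chain genes and takes part in setting which myosins the muscle makes. In heart disease models, other families act on hypertrophy, fibrosis, vessel growth and cell survival under low oxygen.

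The tissue label was checked against miRNAs that mark cell types. All 10 mature forms of the cardiomyocyte markers (miR-1, miR-133a, miR-208a, miR-208b and miR-499) had heart reads, and none was at 0. Their sum was 121977, 154164 and 109898 against 148979.5, 132935 and 232199.9 RPM (reads scaled by the library total alone), most of it miR-133a-3p. The groups overlapped, and the median over the 6 heart libraries, 140957 RPM, compares with 254792 in longissimus muscle and at most 2933 in the other tissues. miR-206, which marks skeletal muscle, was at 8.003, 0 and 5.86 against 0.164, 0 and 4.37 RPM in heart and had a median of 389 in longissimus muscle. The hepatocyte marker miR-122 was at 73.5, 9.85 and 71.6 against 6.47, 65.03 and 11.01 RPM in heart, overlapping between groups, with a median of 23588 in liver. Of the 10 cardiomyocyte forms, 4 were lower at high altitude without overlap by CPM, the arms of miR-208a and miR-499. Of these, miR-499-5p overlapped in RPM. miR-133a is shared with skeletal muscle. In high-altitude hearts miR-208a-3p (33, 58 and 29 counts) was not far above its counts in longissimus muscle of the same group (27, 10 and 12). miR-208b-3p had at least 125573 counts in each heart library and at most 44013 in any longissimus muscle library, as the label heart implies for all 6.

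Markers of other cell types were summed in the same way. Smooth muscle markers (miR-143 and miR-145, 5 of 8 mature forms with reads) summed to 181237, 116128 and 189879 against 69412, 76287 and 59273 RPM, mostly miR-143-3p. Every high-altitude library lay above every low-altitude library, and the 3 forms without reads were further copies of miR-145. The members did not agree: of the 5, only miR-143-3p was higher without overlap, and miR-143-5p and miR-145-5p were lower without overlap. Leukocyte markers (miR-142, miR-150, miR-155 and miR-223, 8 of 8 forms) summed to 3509, 2007 and 2819 against 1926, 1886 and 1532 RPM, led by miR-142-5p, against a median of 38462 in spleen. Kidney epithelium markers (miR-194 and miR-215, 3 of 4 forms, miR-215-3p at 0, miR-192 not analysed here) summed to 246, 166 and 131 against 99.2, 117 and 112 RPM, led by miR-194-5p. For both of these sums the high-altitude libraries lay above the low-altitude ones in RPM, but the groups overlapped after TMM scaling. Ciliated cell markers (miR-34b, miR-34c and miR-449a, 5 of 5 forms) summed to 7.19, 17.5 and 6.88 against 3.44, 1.58 and 5.10 RPM, led by miR-34c-5p, where the lung median was 6767. They were low in all 6 hearts and higher in each high-altitude library on both scales. Erythroid, endothelial, epithelial, neural and fibroblast sums overlapped between the groups. In such bulk samples fewer cells of a type and less RNA per cell cannot be told apart, and the part of these cell types in the results below was not tested.

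High-altitude hearts had more reads of miR-143-3p, miR-22-3p, let-7f-5p and let-7d-3p and fewer of miR-208a-3p, miR-409-5p, miR-125a-5p, miR-16b-5p and miR-143-5p, with no overlap between the groups for any of these 9. The differences ran from -5.11 to 1.95 on the log2 scale, where a positive value is higher at high altitude. The miRNAs named here by rule were the 8 in each direction with the lowest p among those with reads in all 6 libraries, a mean of at least 10 CPM and groups that do not overlap, the 10 most abundant ones, the 3 most abundant members of each list, and a heart list of 13 taken up from the study with partner arms. None of the 1391 miRNAs passed an adjusted p of 0.05 and an absolute log2 fold change of 1.5 by edgeR's quasi-likelihood test (0% called), the lowest Benjamini-Hochberg adjusted p being 0.141. At an unadjusted p below 0.05 the same test found 89, with 43 higher and 46 lower at high altitude (3.09% and 3.31% of the 1391 tested). The 89 were 10.6% of the 838 miRNAs with heart reads, and at a mean of at least 10 CPM the share was 21.8%. Without high-altitude replicate 1 or low-altitude replicate 2 the count of 89 became 54. The groups did not overlap for 77 of 838 miRNAs that were higher (9.19%) and 70 that were lower (8.35%). With library-size scaling these counts were 112 higher and 56 lower. By CPM, the share without overlap in either direction was 17.5% of the 838. It was larger among abundant miRNAs, at 28.8% of the 243 averaging 10 CPM or more (35 higher and 35 lower). Among the 410 goat miRNAs of miRBase it was 22.7%. The shares over all miRNAs given beside each list below are those of the 838. They are a low baseline for lists of abundant members. The median log2 fold change over the 838 was 0.10.

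Other tools passed more miRNAs from the same counts. edgeR's exact test called 11 (68 at an unadjusted p below 0.05), of which 4 were higher (0.288%) and 7 lower (0.503%). The 4 were miR-1304-5p, miR-132-5p, miR-132-3p and miR-4802-3p, and the 7 were miR-208a-3p, miR-409-5p, miR-3069-1-3p, miR-5011-3p, miR-509-3p, miR-1180-3p and miR-296-5p of the class shared with other mammals. DESeq2's Wald test called 36 of the 523 miRNAs to which it gave an adjusted p (105 at an unadjusted p below 0.05), 15 higher (2.87%) and 21 lower (4.02%). These held all 11 of the exact test. The other 11 higher ones were miR-126-5p, let-7d-3p, miR-191-3p, miR-200a-3p, miR-429-3p, miR-671-3p, miR-2483-5p, miR-99b-5p, miR-3099-5p, miR-3099-3p and miR-116-3p. The last 4 of them had 0 counts in high-altitude replicate 2 and in every low-altitude heart library, so they are uncertain. The other 14 lower ones were miR-16b-5p, miR-143-5p, miR-145-5p, miR-30f-5p, miR-362-5p, miR-99a-5p, miR-100-5p, miR-125a-5p, miR-335-5p, miR-224-5p, miR-494-3p, miR-199a-5p, miR-2285a-3p and miR-513a-5p. Adjusted p of edgeR below is that of the quasi-likelihood test. After the filterByExpr filter of edgeR, which kept 406 miRNAs, the quasi-likelihood test called 2, miR-1304-5p (log2 fold change 4.14, Benjamini-Hochberg adjusted p = 0.0284) and miR-208a-3p (-5.23, 0.0358). A fit over all 36 libraries also called 2 in heart, miR-409-5p and miR-143-5p. Without the 45 miRNAs that mix 0 with at least 100 counts, a choice made after the values were seen, 4 passed: miR-1304-5p, miR-208a-3p, miR-5011-3p and miR-409-5p. Without high-altitude replicate 2 there were 6, namely miR-99b-5p, miR-30c-5p, miR-30c-3p, miR-30d-3p, miR-3099-5p and miR-116-3p, the last without a match in miRBase, and most of these were at 0 in several libraries. Scaling by library size alone moved the median of all 838 from 0.10 to 0.27 and the unadjusted counts from 43 higher and 46 lower to 60 and 32. The filterByExpr filter gave 30 higher and 57 lower. The median turned to -0.16 over the miRNAs kept by that filter, -0.14 in the fit over 36 libraries and -0.02 with miRNAs of equal counts kept once, and was 0 without any one of the high-altitude libraries, so the list medians below are set beside a value whose sign was not stable.

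**Figure D1:**
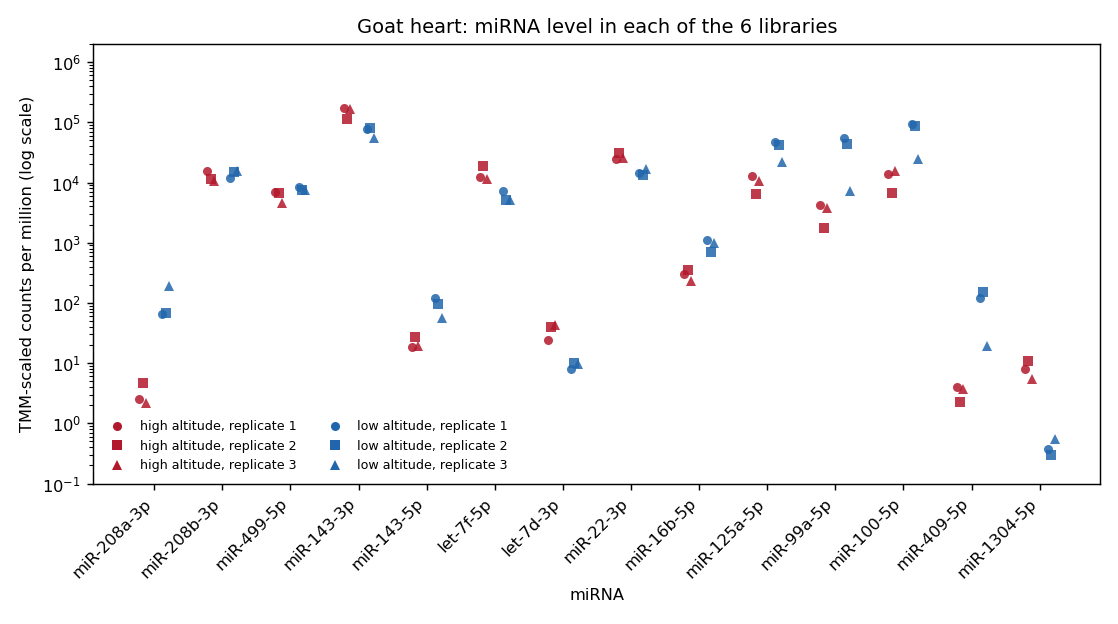
CPM (TMM-scaled, log axis) of 14 miRNAs in each heart library, red for high and blue for low altitude, with a marker shape for each replicate. miR-208a-3p lay at 2.20 to 4.67 CPM in the high-altitude libraries and at 64.4 to 193 CPM in the low-altitude ones, while miR-208b-3p overlapped between the groups.

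Among the miRNAs of cardiac muscle, miR-208a was far lower at high altitude, while its relatives in the other myosin genes differed less. miR-208a-3p, which lies in the gene of the alpha myosin heavy chain (MYH6), had 33, 58 and 29 counts against 681, 696 and 2451. All 3 high-altitude libraries were below all 3 low-altitude libraries, at 3.13 ± 1.34 against 109 ± 72.8 CPM (SD, n = 3; log2 fold change -5.11, SE 0.67). It did not pass edgeR's quasi-likelihood test (Benjamini-Hochberg adjusted p = 0.141) and passed the exact test (adjusted p = 4.34e-05) and DESeq2 (2.82e-15). Its partner arm, miR-208a-5p, had 0, 7 and 0 counts against 16, 14 and 108 and was likewise lower in each high-altitude library (-4.28, or -8.55 without high-altitude replicate 2). miR-208b-3p, from the beta myosin heavy chain gene (MYH7), had 206718, 144316 and 139272 counts against 125573, 148916 and 199315. These groups overlapped (log2 fold change -0.16, SE 0.26, range -0.40 to -0.04), and low-altitude replicate 3 and high-altitude replicate 1 were the highest libraries. miR-499-5p, from MYH7B, had 89723, 84395 and 60937 counts against 87726, 76054 and 94033 (-0.35, range -0.53 to -0.18), and was lower in each high-altitude library by CPM but overlapped when scaled by library size. The partner arm miR-499-3p had 1140, 817 and 1030 counts against 1126, 2142 and 1606 (-0.95, or -0.60 without low-altitude replicate 2), with no overlap. Both miR-499 arms were named after their values were seen.

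In the list of striated muscle miRNAs, all 14 listed mature forms had heart reads. Of these, 3 had a fold change above 0 and 11 below 0, the groups did not overlap for 0 higher and 4 lower members (over all miRNAs 9.19% and 8.35%), and the median was -0.47 (range -0.65 to -0.43) beside 0.10 for all miRNAs. miR-133a-3p, which restrains growth and smooth muscle genes in striated muscle, had 1102463, 1674751 and 1064906 counts against 1592670, 1193371 and 2301595. The highest library was low-altitude replicate 3 and the groups overlapped (log2 fold change -0.59, SE 0.30, or -0.94 without high-altitude replicate 2). miR-133b-5p carries the same count in every heart library, so the 2 names cannot be separated, and both are among the 14. miR-1-3p, which promotes muscle differentiation and was singled out after its values were seen, had 108261, 5047 and 26293 counts against 10826, 11396 and 266872. High-altitude replicate 1 and low-altitude replicate 3 were far above the other 4 libraries, and the fold change of -1.12 turned to 1.60 without low-altitude replicate 3. miR-486-5p, found in muscle and red cells, had 285712, 152726 and 633027 counts against 189559, 191781 and 146692, highest in high-altitude replicate 3 (0.76, or 0.08 without it).

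miR-143 and miR-145, which lie beside each other in the goat genome (RefSeq annotation, ARS1.2) and maintain the contractile state of smooth muscle, differed in opposite directions between the groups. miR-143-3p had 2233078, 1426073 and 2224717 counts against 826986, 800167 and 710385. It was the most abundant miRNA of high-altitude replicates 1 and 3, at 18.1% and 18.9% of their reads, and every high-altitude library exceeded every low-altitude one (log2 fold change 1.09, SE 0.27; Benjamini-Hochberg adjusted p = 0.376 by edgeR and 0.0369 by DESeq2). The other arm, miR-143-5p, had 242, 337 and 256 counts against 1252, 987 and 707. It was lower in all 3 high-altitude libraries, at 21.6 ± 4.75 against 90.5 ± 32.01 CPM (SD, n = 3; log2 fold change -2.06, SE 0.40; edgeR quasi-likelihood Benjamini-Hochberg adjusted p = 0.237, DESeq2 4.44e-05). Since the 3p arm held nearly all reads of the precursor, the 5p value turned to 0.98 when the arms were summed. miR-145-5p, chosen after its values were seen, had 2901, 9541 and 3103 counts against 9722, 14110 and 17078. High-altitude replicate 2 came close to the lowest low-altitude library, and the groups did not overlap (-1.58, or -2.48 without high-altitude replicate 2; DESeq2 Benjamini-Hochberg adjusted p = 0.0412). The summed arms of the miR-145 precursor were lower at high altitude in each library (8612, 12463 and 9689 counts against 19397, 21179 and 20791; log2 fold change -1.31, SE 0.32).

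Among the 10 most abundant heart miRNAs the largest difference was that of miR-100-5p, which belongs with miR-99 and miR-125 to a group whose genes sit in clusters with let-7 genes and which is linked to cell growth and differentiation. miR-100-5p had 179929, 83146 and 208010 counts against 998600, 876744 and 315986. All high-altitude libraries were below all low-altitude ones, and low-altitude replicate 3 lay between the other 2 low-altitude libraries and the high-altitude group (log2 fold change -2.51, SE 0.60; Benjamini-Hochberg adjusted p = 0.340 by edgeR's quasi-likelihood test and 0.00221 by DESeq2). miR-99a-5p, outside the naming rule and chosen after its values were seen, had 55764, 21516 and 49206 counts against 580995, 433657 and 92677. It followed the same order of libraries as miR-100-5p in the low-altitude group, with a log2 fold change of -3.44 (SE 0.80; DESeq2 Benjamini-Hochberg adjusted p = 0.000199) and no overlap. miR-125a-5p had 165123, 80810 and 139911 counts against 507068, 427789 and 274567, again without overlap (log2 fold change -1.91, SE 0.41; edgeR Benjamini-Hochberg adjusted p = 0.262, DESeq2 0.00221). miR-125b-5p had 270551, 247744 and 281409 counts against 740731, 672231 and 330506. Its high-altitude libraries were close together and lower than each low-altitude library (log2 fold change -1.39, SE 0.40).

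Summed over the names miR-99a-5p, miR-99b-5p and miR-100-5p, the level was 17695 ± 8044 against 103656 ± 62750.3 CPM (SD, n = 3), a ratio of 0.171. Over miR-125a-5p and miR-125b-5p it was 30515 ± 3599 against 91415 ± 38262 CPM (SD, n = 3), a ratio of 0.334. Neither sum overlapped between the groups, with TMM or with library-size scaling. The minor arm miR-125b-3p, chosen after its values were seen, went the other way, with 3720, 3545 and 5075 counts against 124, 80 and 2490. It was higher in each high-altitude library, by 2.15 with all libraries and 4.93 without low-altitude replicate 3, which alone among the low-altitude libraries had more than 124 counts. In RefSeq, MIR99A lies within 60000 bases of MIR125B and MIRLET7C, and MIR99B near MIRLET7E. let-7c-5p of the first cluster nevertheless overlapped between groups, with 4888, 4452 and 8803 counts against 6723, 3514 and 4187 (0.09).

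Of the let-7 miRNAs, which rise as cells differentiate and restrain growth genes, the most abundant form and one minor arm were higher at high altitude. let-7f-5p had 163269, 230612 and 148726 counts against 75581, 52245 and 65398. Every high-altitude library was well above the highest low-altitude library (log2 fold change 1.28, SE 0.30; Benjamini-Hochberg adjusted p = 0.317 by edgeR's quasi-likelihood test and 0.00300 by DESeq2). let-7d-3p had 323, 488 and 569 counts against 85, 100 and 124. It too was higher in all 3 high-altitude libraries, at 35.7 ± 9.73 against 9.22 ± 1.02 CPM (SD, n = 3; log2 fold change 1.95, SE 0.36; edgeR Benjamini-Hochberg adjusted p = 0.237, DESeq2 8.57e-05). The major arm let-7d-5p overlapped, with 2053, 2627 and 2427 counts against 2948, 2011 and 2246 (-0.25, range -0.47 to -0.08), and the summed arms gave -0.13. let-7i-5p (0.08, range -0.28 to 0.23) and let-7g-5p (0.39, range 0.05 to 0.57) overlapped as well, both lowest without high-altitude replicate 2.

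Of the let-7 list, all 15 listed mature forms had heart reads, 11 had a fold change above 0 and 4 below 0, and the groups did not overlap for 2 higher and 0 lower members (over all miRNAs 9.19% and 8.35%). Its median of 0.12 was close to the 0.10 of all miRNAs and moved in both directions: it was -0.11 without high-altitude replicate 2 and -0.03 without low-altitude replicate 3, and 0.24 and 0.35 without high-altitude replicates 1 and 3, 0.32 without low-altitude replicate 1 and 0.34 with library-size scaling. The reads of all let-7 names together, which are mostly let-7f-5p, were 20262 ± 4975 against 10896 ± 2013 CPM (SD, n = 3), a ratio of 1.86 without overlap on either scale. let-7a-5p had 21340, 0 and 21790 counts against 14990, 0 and 0. let-7a-3p had 59, 20437 and 120 counts against 56, 10719 and 9869. Which of the names held nearly all the reads differed by library, so neither name can be compared alone, and both are uncertain. Their sum, 1645 ± 13.3 against 1086 ± 325 CPM (SD, n = 3), was higher in each high-altitude library, with 1632, 1644 and 1658 against 1424, 1058 and 776 CPM. The sum over both let-7e names, 91.6 ± 9.66 against 59.9 ± 14.05 CPM (SD, n = 3), was likewise without overlap. Both sums depend on the scaling: when TMM factors were computed after summing the arms of every precursor, high-altitude replicate 1 lay below low-altitude replicate 1 and the groups overlapped for let-7a (0.50, SE 0.32) and let-7e (0.53, SE 0.33).

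**Figure D2:**
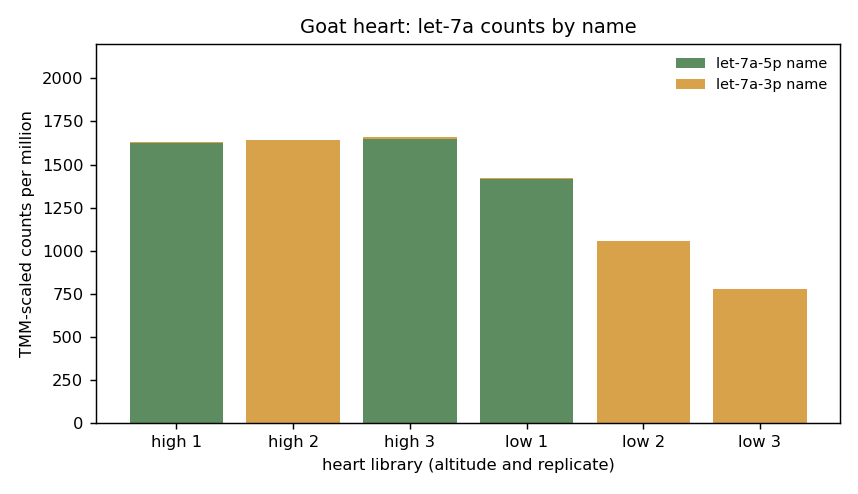
Stacked bars of CPM (TMM-scaled) under the names let-7a-5p and let-7a-3p in the 6 heart libraries. High-altitude replicate 2 and low-altitude replicates 2 and 3 hold nearly all their reads under let-7a-3p and the others under let-7a-5p, while the 3 high-altitude sums, 1632 to 1658 CPM, exceed the low-altitude sums, 776 to 1424 CPM.

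Mature sequences are shown for let-7a-3p and miR-199c-3p, which held many reads where a relative held few or none. They are those listed by the study, the count files hold none, and whether they match the reads counted under each name in each library was not tested. They are written 5′ to 3′ with T for U, and capitals mark the seed, bases 2 to 8.
let-7a-3p: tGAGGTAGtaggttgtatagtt
miR-199c-3p: aCAGTAGTctgcacattggtt
The sequence listed under let-7a-3p carries the seed GAGGTAG, which is that of the let-7 family and is usually found on the 5p arm.

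miRNAs that act in cardiac hypertrophy and stress included members that differed in both directions. miR-24-3p, of the miR-23, miR-27 and miR-24 clusters, had 66358, 40350 and 58390 counts against 93844, 72152 and 140217. It was lower in each high-altitude library (log2 fold change -1.09, SE 0.29; Benjamini-Hochberg adjusted p = 0.434 by edgeR's quasi-likelihood test and 0.0348 by DESeq2). Its partner miR-24-5p, picked after its values were seen, had 190, 235 and 172 counts against 268, 291 and 471 and was lower without overlap (-0.97). miR-27b-3p, by far the most abundant member, had 906478, 752865 and 830291 counts against 676355, 618667 and 665511. The groups overlapped by CPM (log2 fold change 0.12, SE 0.20, range -0.05 to 0.14), were apart and higher at high altitude when scaled by library size, and had a value of -0.14 in the fit over 36 libraries. Its partner miR-27b-5p (654, 649 and 1074 counts against 403, 248 and 298; 1.09) was higher in every high-altitude library. Of the list, 24 of 25 listed mature forms had heart reads, 6 had a fold change above 0 and 18 below 0, and the groups did not overlap for 5 higher and 6 lower members (over all miRNAs 9.19% and 8.35%). The median was -0.18 (range -0.48 to -0.27), or -0.42 without high-altitude replicate 1, -0.48 without high-altitude replicate 2 and -0.02 with library-size scaling. miR-22-3p, which promotes hypertrophy and is abundant in striated muscle, had 323216, 381865 and 338001 counts against 153173, 136271 and 213431. It was higher in each high-altitude library, with 26984 ± 3269 against 14909 ± 1701 CPM (SD, n = 3; log2 fold change 0.86, SE 0.22; edgeR Benjamini-Hochberg adjusted p = 0.387, DESeq2 0.0112).

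miR-132, which with miR-212 promotes hypertrophy and acts in vessels, was read under that name only in high-altitude hearts, at low counts. It was named after its values were seen. miR-132-3p had 35, 33 and 94 counts against 0, 0 and 0, which is at least 46.6-fold higher when the low-altitude group is set to a floor of 3 counts over the group. Most of these reads came from high-altitude replicate 3, without which the bound would be lower (log2 fold change 8.64, or 7.98 without that library). miR-132-5p had 23, 17 and 36 counts against 0, 0 and 0, at least 21.8-fold higher. A second copy, miR-132-1-3p, shows the reverse pattern in a single library, with 0, 0 and 0 counts against 40, 0 and 0. When both names were summed the groups overlapped, because low-altitude replicate 1 then had reads. The sum was 4.15 ± 2.57 against 1.26 ± 2.18 CPM (SD, n = 3), a ratio of 3.29.

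miRNAs tied to cardiac fibrosis, the miR-29 family, which lowers collagens, the miR-30 family, which lowers connective tissue growth factor, and miR-21, mostly overlapped between the groups by CPM. miR-30f-5p, from a gene next to MIR30A, had 4317, 6346 and 3321 counts against 18148, 14610 and 11803. It was lower in each high-altitude library, at 364 ± 133 against 1363 ± 401 CPM (SD, n = 3; log2 fold change -1.91, SE 0.39; Benjamini-Hochberg adjusted p = 0.237 by edgeR's quasi-likelihood test and 0.000113 by DESeq2). miR-30a-5p had 694420, 423574 and 469181 counts against 290139, 362321 and 253361, overlapping by CPM (0.56; 0.28 without high-altitude replicate 1 and 0.28 without low-altitude replicate 3) and apart, higher at high altitude, by library size. miR-30e-5p (346606, 627563 and 286120 counts against 353446, 555024 and 514206; -0.38, range -0.91 to -0.17) overlapped too. miR-30d-5p, with 248931, 353130 and 274162 counts against 226665, 212116 and 244547, had a value of 0.15 that turned to -0.12 without high-altitude replicate 2 and also to -0.12 in the fit over 36 libraries, while library-size scaling set the groups apart as higher. The 5p forms of the family together came to 98433 ± 19506 against 96815 ± 18278 CPM (SD, n = 3), a ratio of 1.02 with overlapping groups.

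miR-29c-3p had 247, 317 and 253 counts against 403, 437 and 534 and was lower in every high-altitude library (log2 fold change -0.96, SE 0.29). The more abundant miR-29a-3p had 34143, 18362 and 23131 counts against 16573, 13007 and 8917. It overlapped by CPM with a value of 0.71 (0.40 without high-altitude replicate 1 and 0.35 without low-altitude replicate 3), and by library size it was higher without overlap, so members of the family did not share a direction. miR-21-5p, which rises in injured heart, had 18186, 25620 and 18801 counts against 11591, 18189 and 25386 and nearly equal means (1624 ± 379 against 1629.5 ± 472 CPM; SD, n = 3). These members and miR-30e-3p (0.86, higher without overlap) were chosen after their values were seen. Of the fibrosis list, all 19 listed mature forms had heart reads, 7 had a fold change above 0 and 12 below 0, and the groups did not overlap for 1 higher and 2 lower members (over all miRNAs 9.19% and 8.35%). Its median of -0.05 turned to 0.08 with library-size scaling, 0.03 without high-altitude replicate 1, 0.07 without low-altitude replicate 2 and 0.01 without low-altitude replicate 3, and was -0.48 without low-altitude replicate 1 and -0.28 without high-altitude replicate 2.

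The miR-15 family, which slows the cell cycle and lowers survival of cardiomyocytes under low oxygen, was lower at high altitude in miR-16b-5p, which DESeq2 called and edgeR did not. miR-16b-5p had 3965, 4375 and 3022 counts against 11531, 7078 and 12650. Each high-altitude library was lower than each low-altitude library, at 294 ± 62.00 against 928 ± 204 CPM (SD, n = 3; log2 fold change -1.66, SE 0.31; Benjamini-Hochberg adjusted p = 0.237 by edgeR's quasi-likelihood test and 6.98e-06 by DESeq2). miR-16a-5p had 54503, 62377 and 36007 counts against 99880, 53986 and 137981. By CPM the groups did not overlap (log2 fold change -1.11, SE 0.38), but with library-size scaling low-altitude replicate 2 and high-altitude replicate 2 crossed. miR-15a-5p had 4338, 4258 and 2525 counts against 2997, 2210 and 3722 and overlapped (0.12, range -0.12 to 0.35). miR-15b-5p, whose gene lies with MIR16B inside SMC4, overlapped as well (447, 292 and 473 counts against 563, 332 and 644; -0.55). miR-195-3p, a minor arm chosen after its values were seen, was higher without overlap (132, 138 and 231 counts against 72, 54 and 53; 1.24). Of the list, all 14 listed mature forms had heart reads, 6 had a fold change above 0 and 8 below 0, and the groups did not overlap for 1 higher and 4 lower members (over all miRNAs 9.19% and 8.35%). The median was -0.35 (range -0.54 to 0.04, highest without low-altitude replicate 3 and lowest without low-altitude replicate 2), or -0.20 with library-size scaling.

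miRNAs of blood vessels showed separate groups for one arm of miR-126, the endothelial miRNA of the EGFL7 gene. miR-126-5p had 63600, 31369 and 107631 counts against 23936, 9689 and 15085. It was higher in each high-altitude library, at 5173 ± 2826 against 1469 ± 698 CPM (SD, n = 3; log2 fold change 1.82, SE 0.54; Benjamini-Hochberg adjusted p = 0.521 by edgeR's quasi-likelihood test and 0.0277 by DESeq2). miR-126-3p had 93125, 110445 and 65940 counts against 90911, 78003 and 174499, with overlapping groups (-0.52; -0.82 without high-altitude replicate 2, -0.32 without high-altitude replicate 3 and -0.32 without low-altitude replicate 3). The arms summed to nearly equal levels, with a log2 fold change of 0.022, and the endothelial marker sum of 12669.6, 11445 and 14748 against 9405, 8135 and 15354 RPM overlapped. miR-92a-3p, of the miR-17-92 cluster that acts in vessel growth, had 27858, 36977 and 32982 counts against 26167, 16916 and 19277 and overlapped by CPM (0.42, range 0.19 to 0.61) but was higher without overlap by library size. miR-20a-5p of the same cluster, chosen after its values were seen, was lower (463, 970 and 425 counts against 923, 1065 and 1389; -1.05, or -1.65 without high-altitude replicate 2), with groups apart by CPM but not by library size. Of the list, 30 of 31 listed mature forms had heart reads, 14 had a fold change above 0 and 16 below 0, and the groups did not overlap for 3 higher and 3 lower members (over all miRNAs 9.19% and 8.35%). Its median was -0.29 (-0.16 with library-size scaling), or -0.82 without high-altitude replicate 2, -0.02 without low-altitude replicate 1 and 0.00 without low-altitude replicate 2.

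miR-210, the miRNA most directly induced by hypoxia-inducible factors, had reads in a single heart library and none in the others. miR-210-3p had 0, 0 and 90 counts against 0, 0 and 0, so all its reads came from high-altitude replicate 3, and no difference can be drawn from it. The abundant members of the hypoxia list overlapped by CPM: miR-26a-5p had 1484724, 1750948 and 1343929 counts against 1340715, 1140805 and 1141025 (log2 fold change 0.11, SE 0.24, range -0.11 to 0.20). High-altitude replicate 2 was the highest library, the groups were apart and higher at high altitude when scaled by library size alone, and the value was -0.15 in the fit over 36 libraries. miR-181a-5p had 213714, 151662 and 165930 counts against 140881, 143899 and 205916 (-0.09, range -0.29 to -0.02), again with overlapping groups. miR-26b-5p had 56679, 114837 and 40855 counts against 33220, 30925 and 36973, with high-altitude replicate 2 far above the rest (0.87, or 0.20 without it), and was higher without overlap by library size. Among members chosen after their values were seen, miR-155-5p was higher (607, 1217 and 614 counts against 395, 431 and 463; 0.71, or 0.19 without high-altitude replicate 2) and miR-181c-5p lower (2926, 3852 and 2629 counts against 4084, 3357 and 5678; -0.67). miR-199a, which lowers the alpha subunit of hypoxia-inducible factor 1 in cardiomyocytes, differed between its arms. miR-199a-3p was higher in each high-altitude library (40921, 40579 and 34384 counts against 23706, 25011 and 23465; 0.45, range 0.26 to 0.55), whereas miR-199a-5p overlapped (3286, 3862 and 3321 counts against 9375, 11275 and 3846; -1.50). The counts of miR-199a-3p are nearly those of miR-199b-3p and miR-199c-3p summed, so reads of these names may be shared. Of the list, 24 of 25 listed mature forms had heart reads, 14 had a fold change above 0 and 10 below 0, and the groups did not overlap for 2 higher and 1 lower members (over all miRNAs 9.19% and 8.35%). The median was 0.05, and -0.13 without high-altitude replicate 2, -0.06 without low-altitude replicate 3, 0.00 without high-altitude replicate 1 or 3 and 0.20 with library-size scaling.

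miRNAs of lipid and glucose metabolism did not separate the groups by CPM. miR-26a-5p, which is also on this list, was higher at high altitude without overlap when scaled by library size. miR-378-3p, which lies in PPARGC1B and acts on mitochondrial metabolism, had 245187, 380472 and 251103 counts against 177806, 180937 and 290425. High-altitude replicate 2 was the highest library, and the value of 0.25 (SE 0.29) turned to -0.10 without it. miR-103-3p, which affects insulin sensitivity, had 8011, 9382 and 7595 counts against 5779, 5667 and 9825 (0.05, range -0.16 to 0.14), and miR-107-3p had nearly the same counts, so reads of the 2 may be shared. Of the list, all 18 listed mature forms had heart reads, 14 had a fold change above 0 and 4 below 0, and the groups did not overlap for 0 higher and 0 lower members (over all miRNAs 9.19% and 8.35%). The median was 0.23, or 0.09 without high-altitude replicate 1, 0.08 without low-altitude replicate 1 and 0.34 with library-size scaling.

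Blood cell miRNAs mostly overlapped between the groups by CPM, and some were absent from single hearts. miR-142-5p, specific to blood cells, had 38709, 18783 and 29619 counts against 17989, 17031 and 13839. High-altitude replicates 1 and 3 were the highest libraries (0.58; 0.29 without high-altitude replicate 1 and 0.31 without low-altitude replicate 3). Its arm miR-142-3p went the other way, with 721, 916 and 170 counts against 786, 1186 and 1346 (-1.07; -1.66 without high-altitude replicate 2), apart by CPM and overlapping by library size. miR-146a-3p, from a gene that dampens inflammatory signals, had 20275, 8610 and 18220 counts against 9626, 9013 and 10306 (0.47, range 0.22 to 0.67) and overlapped. The myeloid miR-223-3p had 355, 824 and 219 counts against 192, 106 and 151, highest in high-altitude replicate 2 (1.44, or 0.59 without it), and was higher without overlap by library size only. The lymphocyte miR-150-5p had 3012, 3070 and 2540 counts against 4136, 1568 and 3111 and overlapped (-0.24, range -0.51 to 0.09). miR-144-3p, of red cells, had 0, 464 and 0 counts against 725, 838 and 0 and miR-144-5p 0, 234 and 0 counts against 124, 105 and 0, each at 0 in 3 of 6 hearts. The miR-142-3p, miR-223-3p, miR-150-5p and miR-144 values were chosen after they were seen. Of the list, 14 of 15 listed mature forms had heart reads, 10 had a fold change above 0 and 4 below 0, and the groups did not overlap for 0 higher and 1 lower members (over all miRNAs 9.19% and 8.35%). The median was 0.55 (0.52 with members at 0 in a group set to the floor), or 0.23 without high-altitude replicate 1 and 0.28 without low-altitude replicate 3.

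The miRNA cluster of the imprinted DLK1-DIO3 region, expressed from the maternal chromosome, held a large difference in one arm of miR-409. miR-409-5p had 52, 28 and 49 counts against 1260, 1532 and 248. All high-altitude libraries lay at or below 52 counts and all low-altitude libraries at or above 248, giving 3.31 ± 0.924 against 96.7 ± 68.7 CPM (SD, n = 3; log2 fold change -4.86, SE 0.85). It did not pass edgeR's quasi-likelihood test (Benjamini-Hochberg adjusted p = 0.237) and passed the exact test (adjusted p = 0.00118) and DESeq2 (2.07e-08). The other arm, miR-409-3p, had 544, 786 and 1073 counts against 493, 344 and 384 and overlapped by CPM (0.75, or 0.49 without high-altitude replicate 3), and was higher without overlap by library size. miR-127-3p, the most abundant member, had 59607, 28731 and 54843 counts against 37961, 46956 and 24520 and overlapped (0.12, range -0.24 to 0.41). miR-411a-5p had 19558, 14704 and 18709 counts against 9755, 9424 and 13905 and was higher in each high-altitude library (log2 fold change 0.47, SE 0.24). miR-379-5p had 2774, 383 and 1581 counts against 757, 977 and 3416, spread widely within both groups (-0.27, range -0.97 to 0.43).

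Other members with separate groups, chosen after their values were seen, were miR-410-3p (227, 286 and 236 counts against 94, 93 and 121; 1.08), higher at high altitude, and miR-494-3p (59, 117 and 55 counts against 148, 167 and 295; -1.57) and miR-329b-3p (53, 54 and 80 counts against 158, 115 and 89; -1.20), which were lower. In the whole list, 80 of 102 listed mature forms had heart reads, 41 had a fold change above 0 and 39 below 0, and the groups did not overlap for 8 higher and 8 lower members (over all miRNAs 9.19% and 8.35%). The cluster thus showed no common direction, with a median of 0.05 (range -0.22 to 0.15) that turned to -0.22 without high-altitude replicate 2, -0.06 without high-altitude replicate 3 and -0.02 without low-altitude replicate 2, and was 0.15 without low-altitude replicate 1 and 0.21 with library-size scaling.

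**Figure D3:**
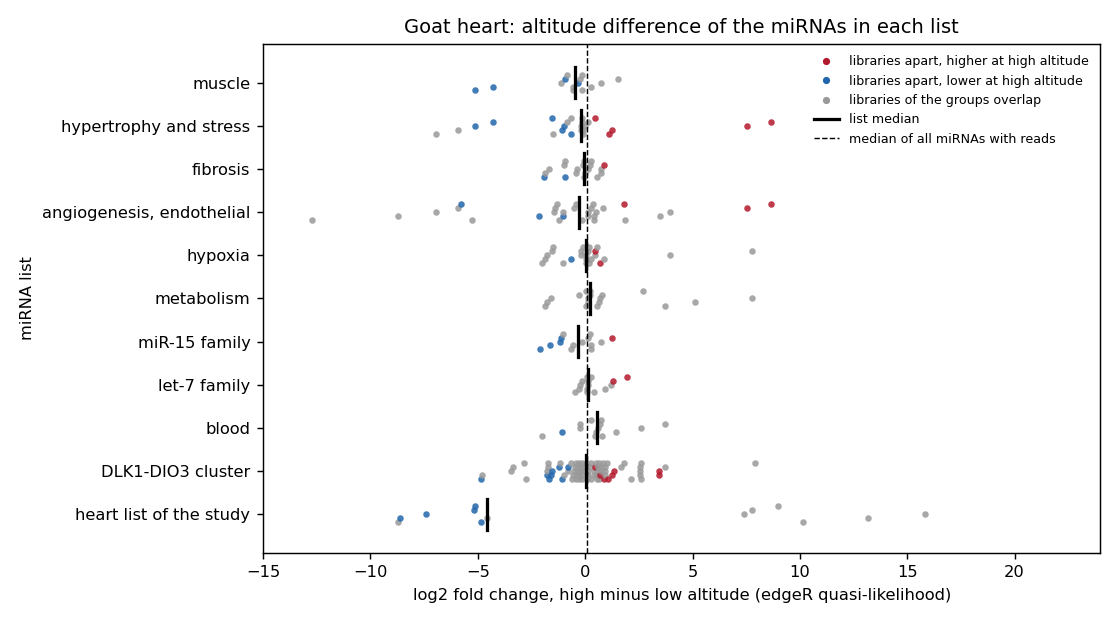
Log2 fold change (high minus low altitude) of each member of 11 lists, red where the groups do not overlap and the value is higher, blue where lower, grey where they overlap. A thick bar marks the median of each list, and the dashed line marks 0.10, the median of all 838 miRNAs.

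Some miRNAs with separate groups lie inside or near protein-coding genes, a theme for which no list was tested. miR-151-3p, inside PTK2, had 36350, 26171 and 44528 counts against 10365, 10859 and 13761. It was higher in all 3 high-altitude libraries (log2 fold change 1.40, SE 0.27; Benjamini-Hochberg adjusted p = 0.237 by edgeR and 0.00174 by DESeq2), while miR-151-5p overlapped (0.28, range -0.12 to 0.57). miR-423-5p, inside NSRP1, had 15705, 11381 and 16794 counts against 5717, 4007 and 4828, without overlap (log2 fold change 1.36, SE 0.28). Its arm miR-423-3p overlapped (0.18, range -0.07 to 0.25). miR-504-5p, inside the growth factor gene FGF13, had 1628, 1562 and 1145 counts against 602, 369 and 395 and was higher at high altitude (log2 fold change 1.43, SE 0.36). miR-3431-3p had 618, 685 and 864 counts against 297, 196 and 183 and was higher as well (log2 fold change 1.44, SE 0.37). Its neighbour miR-224-5p, inside GABRE and chosen after its values were seen, had 895, 1227 and 1015 counts against 4560, 3743 and 1067 and overlapped through low-altitude replicate 3 (-1.86).

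miR-362-5p, inside CLCN5, had 140, 101 and 105 counts against 293, 502 and 343. It was lower in each high-altitude library (log2 fold change -1.96, SE 0.39; Benjamini-Hochberg adjusted p = 0.237 by edgeR's quasi-likelihood test and 0.000297 by DESeq2). Of its neighbours, chosen after their values were seen, miR-500-5p was lower (35, 24 and 41 counts against 45, 68 and 76; -1.13) and miR-660-5p higher (1048, 940 and 1065 counts against 491, 437 and 740; 0.68), both without overlap. Further miRNAs of known hosts with separate groups were also chosen in this way. miR-335-5p, of the imprinted gene MEST, had 202, 364 and 113 counts against 541, 625 and 1617 (log2 fold change -2.17, SE 0.60; DESeq2 Benjamini-Hochberg adjusted p = 0.00346) and was lower. miR-342-3p, of EVL, had 9513, 6311 and 5881 counts against 11961, 10794 and 14109 (-0.98) and was lower. miR-204-5p, of TRPM3, had 403, 374 and 636 counts against 153, 145 and 235 (1.20) and was higher. miR-28-3p, of LPP, had 23139, 21150 and 26099 counts against 12004, 12198 and 14384 (0.65) and was higher, as was miR-328-3p with 839, 985 and 1097 counts against 445, 265 and 414 (1.17). miR-374b-5p had 1680, 2477 and 1858 counts against 3030, 3277 and 3559 (-0.93) and was lower in each high-altitude library. Epithelial miR-200a-3p (227, 47 and 313 counts against 37, 34 and 41; 2.15) and miR-429-3p (32, 15 and 180 counts against 3, 6 and 5; 3.74, or 2.09 without high-altitude replicate 3) were higher at low levels, with no overlap. The whole epithelial marker list (9 of 11 forms with reads, miR-141-5p and miR-200c-5p at 0) summed to 51.4, 12.99 and 50.2 against 13.02, 12.8 and 8.58 RPM, overlapped between groups and was led by miR-200a-3p, and its part was not tested.

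A further set of miRNAs was absent or at lower counts in every library of one group. miR-1304-5p, chosen after its values were seen because its mean is under 10 CPM, had 104, 134 and 73 counts against 4, 3 and 7. The high-altitude libraries were all above the low-altitude ones, at 8.08 ± 2.63 against 0.408 ± 0.130 CPM (SD, n = 3; log2 fold change 4.27, SE 0.56; Benjamini-Hochberg adjusted p = 0.141 by edgeR's quasi-likelihood test and 3.40e-08 by DESeq2). miR-5011-3p had 0, 0 and 0 counts against 38, 32 and 72, at least 54.9-fold lower at high altitude with the floor of 3 counts over the group. miR-1180-3p, chosen after its values were seen, had 0, 0 and 0 counts against 19, 20 and 25, at least 24.7-fold lower. Both were thus read in every low-altitude heart library and in no high-altitude heart library, while each had reads in high-altitude libraries of other tissues. miR-509-3p had 0, 0 and 5 counts against 489, 105 and 183, and its few high-altitude reads came from replicate 3. The form of miR-296-5p shared with other mammals, chosen after its values were seen, had 3, 0 and 0 counts against 38, 52 and 74, while the goat form had 9, 48 and 11 counts against 20, 7 and 16 and overlapped. miR-4802-3p, chosen after its values were seen, had 14, 14 and 8 counts against 0, 0 and 0, at least 10.3-fold higher. miR-3069-1-3p had 179, 83 and 37 counts against 6392, 690 and 2208. It was lower in every high-altitude library, though both groups varied widely (log2 fold change -5.19, SE 1.08; edgeR Benjamini-Hochberg adjusted p = 0.237, DESeq2 9.04e-08, exact test 0.00740).

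Mature sequences are shown for miR-409-5p, miR-3069-1-3p and miR-5011-3p, which had the lowest fold changes among the non-overlapping miRNAs with a sequence at hand, and their seeds, again in capitals, all differ.
miR-409-5p: aGGTTACCcgagcaactttgcat
miR-3069-1-3p: aTTGGCACgtcttggaatgc
miR-5011-3p: tATATATAcatacacaccatgt

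A list of 13 heart miRNAs taken up from the study, which does not hold all those it called in heart, was chosen on these same samples, so their direction is not independent evidence. All 13 had heart reads, with 6 above and 7 below 0, and the groups did not overlap for 0 higher and 5 lower members (over all miRNAs 9.19% and 8.35%). Those 5 were miR-208a-3p, miR-409-5p, miR-3069-1-3p, miR-5011-3p and miR-509-3p. The other 8 were read in 1 or 2 libraries only and overlapped at 0. miR-116-3p, without a match in miRBase, had 14435, 0 and 9357 counts against 0, 0 and 0. miR-3099-5p had 1724, 0 and 2108 counts against 0, 0 and 0 and miR-3099-3p 96, 0 and 110 counts against 0, 0 and 0. All of these were read in high-altitude replicates 1 and 3 and absent from replicate 2. miR-425-5p had 0, 0 and 462 counts against 0, 0 and 0 and the 3p arm of the sequence with running number 210, which has no match in miRBase and does not stand for miR-210, had 0, 0 and 70 counts against 0, 0 and 0, both in high-altitude replicate 3 alone. miR-232-3p, without a match in miRBase, had 14, 0 and 0 counts against 277, 0 and 0, and miR-106a-5p of the class shared with other mammals had 0, 0 and 0 counts against 0, 135 and 0. Without the one library that held its reads, the fold change of miR-425-5p, of miR-210-3p, of running number 210 and of miR-106a-5p was 0. That of miR-232-3p, left with 14 counts in high-altitude replicate 1 when low-altitude replicate 1 was dropped, turned to 5.09. The median of -4.57 over the 13 became 5.09 without low-altitude replicate 1 and 0.00 without low-altitude replicate 2.

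The arms of one precursor did not always share a direction. Of 124 precursors with both arms at 1 CPM or more, 61 had arms of opposite sign. This is close to the even split that unrelated signs would give. The 124 also hold precursors such as let-7a and miR-30c, whose names mix 0 with at least 100 counts. Both arms had separate groups in 9 precursors, in opposite directions in 5 of them, and both arms had an unadjusted p below 0.05 in 6, in opposite directions in 2 of them. miR-191 is an example chosen after its values were seen: miR-191-5p had 37610, 16223 and 41652 counts against 86296, 75135 and 41430 and was lower by CPM (-1.36), with overlap by library size. miR-191-3p had 598, 326 and 512 counts against 176, 53 and 84 and was higher in each high-altitude library (1.96). miR-106b, of MCM7 and also chosen after its values were seen, was higher in its 3p arm (1221, 970 and 1033 counts against 597, 531 and 530; 0.73) and lower in its 5p arm (221, 292 and 190 counts against 344, 274 and 342; -0.66). Of the arms named above, miR-143-5p, miR-126-3p, miR-409-3p, miR-191-3p, miR-125b-3p, miR-195-3p, miR-30e-3p, miR-199a-5p, miR-142-3p, miR-106b-5p and let-7d-3p turned in sign by more than 1 SE when the arms were summed. Others, such as let-7i-5p, miR-103-3p and miR-127-3p, turned by less than 1 SE.

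The same goats gave the other tissues, so these are side-by-side values and not independent support. The heart difference was set against the mean difference of the other 5 tissues in an edgeR fit over 36 libraries. This fit had no term for the goat, and 0 of 1391 miRNAs passed an adjusted p of 0.05 (0%). Of these, 966 were at 0 in at least 1 of the 12 groups of tissue and altitude, where this contrast can lack a usable estimate, and for miR-208a-3p, miR-5011-3p, miR-509-3p, miR-1180-3p and miR-132-3p it could not have passed. Over the 425 with reads in all 12 groups, a set chosen after the values were seen, 0 passed as well (lowest Benjamini-Hochberg adjusted p = 0.104). Without low-altitude heart replicate 3, 1 passed: miR-125b-3p (heart minus others 4.92, SE 0.87; Benjamini-Hochberg adjusted p = 0.00646). miR-409-5p, at -4.86 in heart, was at -5.01 in kidney, -5.53 in liver, 0.62 in lung, -6.28 in longissimus muscle and -5.03 in spleen. miR-99a-5p, at -3.44 in heart, was at -3.83 in kidney, -4.10 in liver, 0.67 in lung, -2.18 in longissimus muscle and -4.21 in spleen. For both the low values recurred in 4 of the other 5 tissues and lung was the exception. let-7d-3p was above 0 in every tissue, with 2.52 in kidney, 2.97 in liver, 1.23 in lung, 2.92 in longissimus muscle and 1.51 in spleen. miR-143-5p was below 0 in every tissue, with -1.78 in kidney, -2.31 in liver, -0.90 in lung, -1.02 in longissimus muscle and -2.44 in spleen. miR-143-3p, higher in heart by 1.09, had 0.15 in kidney, 0.31 in liver, -0.27 in lung, 1.34 in longissimus muscle and -0.41 in spleen. miR-1304-5p, at 4.27 in heart, was below 0 elsewhere, with -0.85 in kidney, -0.88 in liver, -1.23 in lung, -0.22 in longissimus muscle and -0.80 in spleen. Its heart difference exceeded the mean of the others by 4.72 (SE 1.13), with a Benjamini-Hochberg adjusted p of 0.342 by edgeR's quasi-likelihood test.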

How the data were processed

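Small RNA of 6 heart libraries was taken as deposited counts of reads per mature miRNA. The authors called bases with CASAVA 1.8, filtered reads, mapped them to the goat genome ARS1 with Bowtie allowing 0 mismatches, identified miRNAs with miRDeep2 against miRBase release 21, and dropped those never reaching 3 reads in any library. Groups came from the tissue and altitude labels. All 1391 miRNAs were tested between 3 high-altitude and 3 low-altitude hearts with edgeR 4.0.16 (TMM, quasi-likelihood test) in R 4.3.3, with Benjamini-Hochberg adjustment over all of them, thresholds of 0.05 and 1.5 on the log2 scale in either direction. The heart difference was also set against the mean of the other 5 tissues in a fit of 36 libraries in 12 groups. The scripts were tested on simulated counts that varied far less between libraries than these hearts. That test therefore does not show how many differences of these data could be found. miRNAs were named by rule: up to 8 per direction, the 10 most abundant, up to 3 per list, and the heart list of the study with partner arms. Alternatives were other scalings and filters, the edgeR exact test, DESeq2 1.42.0, a fit of 36 libraries, a replicate block, summed arms, merged equal miRNAs and each library left out. limma 3.58.1, NumPy 2.4.6, pandas 2.3.3 and Matplotlib 3.10.9 were also used. Members and lists were chosen with earlier results of these data known. Neighbouring genes came from RefSeq (ARS1.2, names only).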

Additional observations from a re-analysis of the deposited data

How the results depend on the processing

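The count of miRNAs past both thresholds was 0 by the quasi-likelihood test, 89 at an unadjusted p below 0.05, and stayed at 0 with RLE factors, library size only, at least 3 reads in heart, no fold minimum, summed arms and equal miRNAs kept once. It was 2 with filterByExpr, 11 by the edgeR exact test, 36 by DESeq2, 2 in the fit over 36 libraries and 4 without the 45 miRNAs that mix 0 with at least 100 counts, an alternative chosen after seeing the data. With single libraries left out it ranged from 0 to 6, and the unadjusted count from 54 to 113. Summing arms gave 53 at an unadjusted p below 0.05, with fewer features tested. The test of heart against the other tissues gave 0, and 0 to 1 with heart libraries left out. It can lack a usable estimate for 966 miRNAs at 0 in at least 1 of 12 groups, and over the other 425, chosen after seeing the data, it gave 0. The replicate block gave 0 calls and 79 at an unadjusted p below 0.05, and 0 for heart against the other tissues. Same-numbered high and low libraries came from different goats and had correlations of 0.370, 0.168 and -0.249 over 219 miRNAs. The value of 0.370, for replicates 1, was the highest of all high and low pairs. High-altitude replicate 2 correlated best with low-altitude replicate 3 (0.316). miR-92b-3p and miR-199b-3p had reads in the same-numbered libraries of both groups, whereas let-7a-5p and miR-30c-5p did not follow the numbers. These correlations cannot show whether same-numbered libraries shared a processing step, which was not tested. Of 1882 values of 119 miRNAs under the alternatives, 1731 kept direction and side of the threshold and 69 passed it. Another 51 changed sign by less than 1 SE, which is not counted as a reversal. The remaining 31 changed sign by more or fell to 0 when the only library with reads was left out. In the fit over 36 libraries miR-26a-5p was -0.15, miR-27b-3p -0.14 and miR-30d-5p -0.12. With libraries left out the log2 fold change ranged from -0.12 to 0.20 for miR-30d-5p, -0.28 to 0.23 for let-7i-5p, -0.10 to 0.35 for miR-378-3p, -0.30 to 0.24 for let-7f-3p and -2.70 to 1.60 for miR-1-3p. For names read in 1 library or nearly so it ranged from 0 to 8.39 for miR-210-3p, 0 to 4.53 for miR-210-5p, 0 to 8.03 for the 3p arm of running number 210, which has no match in miRBase, 0 to 10.74 for miR-425-5p, 0 to 8.86 for miR-425-3p, -9.77 to 5.09 for miR-232-3p, -3.42 to 0 for miR-232-5p and -9.37 to 0 for miR-106a-5p. With arms summed, let-7d-3p was -0.13, miR-143-5p 0.98, miR-126-3p 0.022, miR-22-5p 0.78, miR-409-3p -1.15, miR-16b-3p -1.73, miR-30f-3p -1.97, miR-125a-3p -2.04, miR-125b-3p -1.50, miR-191-3p -1.47, miR-195-3p -0.53, miR-30e-3p -0.47, miR-199a-5p 0.033, miR-142-3p 0.40 and miR-106b-5p 0.26. The cause of the other changes was not tested. Depth limits miRNAs near 3 counts, and 868 miRNAs had no adjusted p from DESeq2.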
